A study of Mus musculus with 30 samples.

Results

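The mouse genes 2310057J18Rik and C130026I21Rik are described here in 15 adult tissues. Each has 1 probe on the array with its symbol, Z00047951-1 and Z00042230-1, and both are among 5029 genes with a symbol and a probe past the filter. They were chosen by their bladder values on these arrays, as the genes with a symbol with the largest difference between bladder and the mean of the other 14 tissues whose bladder arrays both lay above every other array. Every comparison with bladder is therefore a description without a test. Tests were made over the other 14 tissues.

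All animals were adult male C57BL/6 mice, 28 weeks old per the labels although the study's methods give another age, with no genetic change or treatment named. Besides bladder, the tissues were kidney, stomach, both intestines (small intestine and large intestine), liver, lung, heart, muscle, bone, fat, skin, eyes, cerebellum and brain cortex, with 2 arrays each and 30 arrays in all. On each array Cy3 carried the tissue RNA and Cy5 a common reference, RNA of pooled mouse cell lines with embryonic stem cell RNA. The series text states that replicates came from different animals, except bone and fat with a single replication, so what the spread between their arrays covers is not known. The main value is log2(Cy3/Cy5) after background correction and loess, where 0 means equal signal of tissue and reference.

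2310057J18Rik is a protein-coding gene that the mouse gene table also lists as Leg1, a name that stands for liver-enriched gene 1. Leg1 was first studied in zebrafish, where the liver secretes its protein, and mammals hold related genes. C130026I21Rik lies in a cluster of genes of the SP100 family. Proteins of that family sit in nuclear bodies, bind chromatin, and are commonly raised by interferon. The urinary bladder consists of a stratified lining, the urothelium, over connective tissue and a thick smooth muscle wall. Whole tissue was extracted, so fewer cells of a type and less RNA per cell cannot be told apart.

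In GRCm38.p6, 2310057J18Rik spans chr10:28972288-28986306 (14019 bases) and C130026I21Rik spans chr1:85241286-85282883 (41598 bases), both on the minus strand. The whole measurement of each gene rests on 60 bases, so both probes are shown, in the direction given by the spot files.

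Probe of 2310057J18Rik: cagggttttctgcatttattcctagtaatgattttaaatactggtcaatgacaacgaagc
Probe of C130026I21Rik: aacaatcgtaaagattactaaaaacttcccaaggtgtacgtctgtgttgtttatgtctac

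Each probe holds 21 G or C bases (35.0%), against a median of 43.3% over the probes past the filter. The longest stretch shared with any of the 42005 other probes, on either strand, was 15 bases for 2310057J18Rik and 13 bases for C130026I21Rik. Where the probes lie in the genes was not analysed here.

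2310057J18Rik was bright in bladder, seen on 1 stomach array, and near the floor of the scanner elsewhere. Its Cy3 mean signal was 160196 scanner units on bladder replicate 1 and 2044 on bladder replicate 2, a 78.4-fold gap within 1 tissue. On stomach replicate 1 it was 378 and on stomach replicate 2 it was 55.8. Over the 26 arrays of the remaining 13 tissues the lowest, median and highest Cy3 signals were 50.2, 55.6 and 64.2. Cy3 was well above background on only 3 of 30 arrays, both of bladder and 1 of stomach. The Cy5 signal of the reference lay between 49.7 and 66.0 on the 28 arrays without bladder (median 55.2), so the denominator of the ratio was close to background for this gene.

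**Figure D1:**
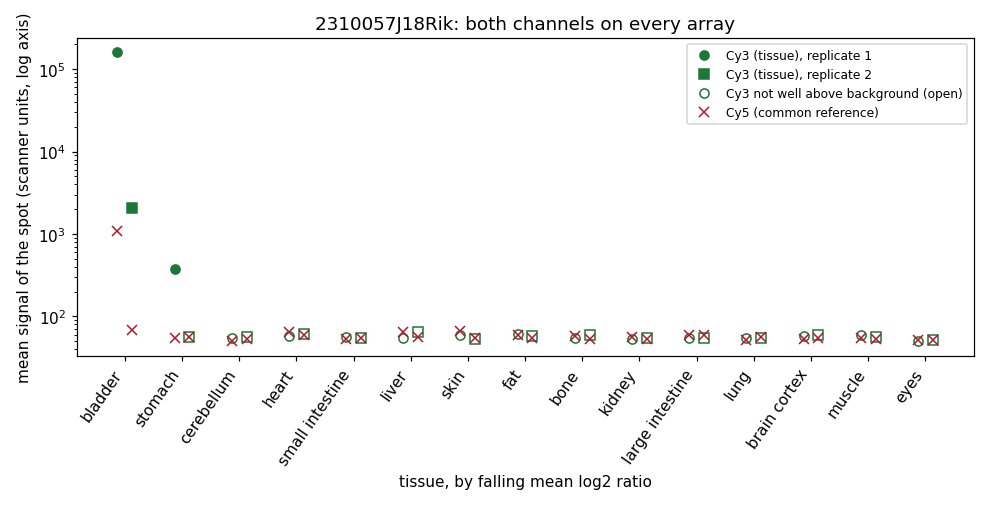
Mean signal of the 2310057J18Rik spot in scanner units on a log axis, for each of 30 arrays by tissue; circles and squares are Cy3 of replicates 1 and 2 (open where not well above background) and crosses are Cy5. The 3 filled points are the bladder arrays at 160196 and 2044 and stomach replicate 1 at 378, and bladder replicate 1 is also the array with the highest Cy5, 1097.

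As a log2 ratio, 2310057J18Rik was 8.33 and 5.44 in bladder, a mean of 6.88 ± 2.04 (SD, n = 2). In stomach it was 3.56 and 0.07. The 26 arrays of the other tissues ran from -0.22 to 0.23 with a median of -0.01. The lower bladder array stood 1.88 above the higher stomach array, so bladder overlapped no tissue. Stomach, second by its mean of 1.82 ± 2.46 (SD, n = 2), overlapped cerebellum, the third. From the third place (cerebellum, 0.15) to the last (eyes, -0.08) all neighbours in the order overlapped, and since none of these arrays was well above background their order has no meaning.

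Bladder exceeded the mean of the other 14 tissues by 6.75 on the log2 scale, by 5.30 without bladder replicate 1 and by 8.19 without bladder replicate 2. Where neither array of a tissue was well above background, only a bound on the fold can be given. Taking, per array, the higher of the spot's own Cy3 level and the lowest level that was well above background, after loess and scaling between arrays, the mean bladder level was above that of another tissue by 266-fold (muscle) to 333-fold (brain cortex), with the other 11 tissues between them. These values are bounds within that scaling only. The log2 ratio gave 107-fold over the mean of the other 14 tissues, stomach included. That is not a measured fold, because 27 of their arrays were not well above background in Cy3. From the quantile-normalised Cy3 level, an alternative chosen after seeing the data, the bounds ran from 196-fold (muscle) to 229-fold (liver). With bladder replicate 2 alone they ran from 32.6-fold to 40.8-fold in the first scaling and from 21.3-fold to 24.8-fold in the second. All of these come from Cy3 alone with no dye swap, so they are open to dye bias. For stomach, where 1 of 2 arrays measured the gene, no bound is given.

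The gap between the bladder arrays depended on how the value was made. In the Cy3 level alone, background-corrected and quantile-normalised, the arrays differed by 6.41 on the log2 scale (17.14 and 10.72), the 4th largest of 21017 probes with both values. In the loess ratio the difference was 2.89, rank 38. In the scanner software's processed ratio the arrays read 8.36 and 8.46, a difference of -0.10 at rank 13834. In the authors' value table, converted to log2 units, they read 12.66 and 12.31, a difference of 0.35 at rank 5129. The processed signals show what this rests on. Processed Cy3 was 431659 and 4904 on the bladder arrays, and processed Cy5 was 1312 and 13.9, so both channels were higher on replicate 1.

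**Figure D2:**
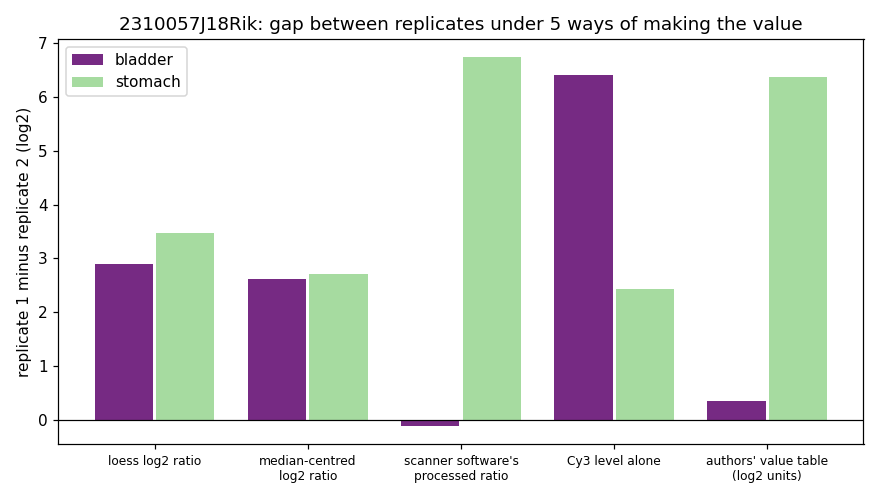
Replicate 1 minus replicate 2 of 2310057J18Rik in bladder and stomach, in log2 units, for 5 ways of making the value. The bladder gap runs from 6.41 in the Cy3 level to -0.10 in the processed ratio, and the stomach gap from 2.43 to 6.73, with the loess values at 2.89 and 3.48.

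Although the reference RNA in Cy5 did not change between arrays, the Cy5 mean signal of 2310057J18Rik was 1097 on bladder replicate 1 and 68.9 on replicate 2. The excess of Cy5 over its median came to 0.65% of Cy3 on replicate 1 and 0.665% on replicate 2, the latter from a Cy5 value close to the 66.0 that the other tissues reached and so imprecise. A Cy5 signal that moved with a bright Cy3 spot was not particular to this probe. There were 315 cases with Cy3 above 50000 and a median Cy5 under 100, on the 23 arrays with more than 2 such probes. They include 2310057J18Rik on bladder replicate 1. The median Cy5 excess of an array lay between 1.77% and 12.5% of Cy3, so the 0.65% of 2310057J18Rik was below that range. The part of the Cy5 excess in the ratio of 2310057J18Rik was not tested.

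Bladder replicate 1 stood apart from replicate 2 at a limited set of probes. In the Cy3 level 8 probes were more than 5 log2 units apart between the bladder arrays, fewer than in fat (148), large intestine (31), bone (17) or skin (15), and 0 were so in stomach. Over all probes the log2 ratios of the pair correlated at r = 0.971 (a value across probes, and probes are no replicates). In the Cy3 level, 15 probes were more than 4 log2 units higher in replicate 1 and 0 were as much higher in replicate 2. The 10 probes with the largest gaps were all brighter on replicate 1, by 34.0-fold to 138-fold in mean signal, and 2310057J18Rik was the only 1 with a symbol here. Outside bladder, 5 of these 10 were brightest in heart or muscle, and 4 of the 5 were at least 15.9-fold brighter on stomach replicate 1 than on stomach replicate 2. 2310057J18Rik read 378 on stomach replicate 1 and 55.8, not well above background, on replicate 2, and was not well above background on any heart or muscle array. Whether tissue taken along with replicate 1 of bladder and of stomach has a part in these gaps was not tested. C130026I21Rik showed no such gap, with bladder Cy3 signals of 7913 and 8280.

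**Figure D3:**
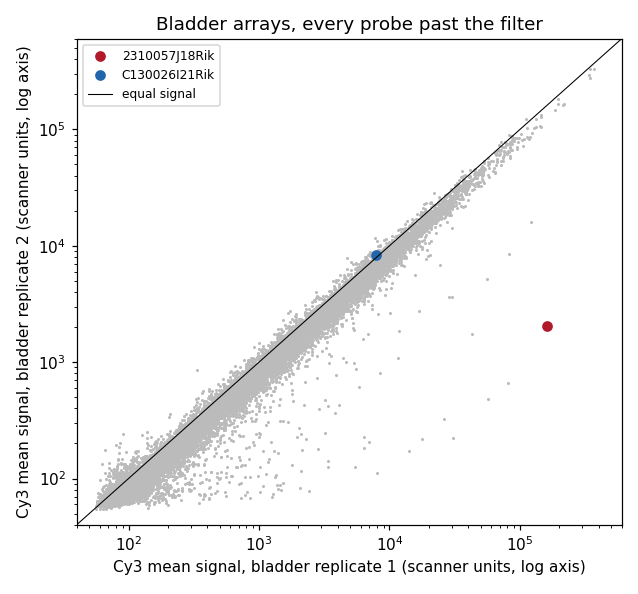
Cy3 mean signal of bladder replicate 1 (x) against replicate 2 (y) in scanner units on log axes, 1 grey dot per probe past the filter, with the line of equal signal. C130026I21Rik (7913 and 8280) lies on the cloud, and 2310057J18Rik (160196 and 2044) lies far below the line.

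Among the 14 tissues without bladder, 2310057J18Rik did not pass the moderated F-test of limma (adjusted p = 0.328), whereas 89.8% of 21019 probes passed it. The gene entered that test only through its bladder arrays and would not have been tested under a filter on the 14 tissues alone, where 27 of its 28 arrays were not well above background. The test thus compared signal at background with 1 stomach array, and it says little about levels among the 14 tissues. Against the mean of the other 13 tissues, none of which had an array well above background, the mean of stomach was higher by 1.81 on the log2 scale, under the difference of 2 required for a call, and no p is given for it. It was 3.39 in the processed ratio and 3.14 in the authors' table, both over that limit. The difference rested on 1 array: without stomach replicate 1 it was 0.07, and without stomach replicate 2 it was 3.55. Of all probes 3.98%, or 837, were called higher in stomach, and 1293 were in the processed ratio.

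The gene with a symbol most like 2310057J18Rik over the 30 arrays was 4932411K12Rik (Pearson r = 0.901), with log2 ratios of 2.01 and 2.00 in bladder and 1.31 and 1.05 in stomach. It thus shared the second tissue as well, and over the 28 arrays without bladder its r with 2310057J18Rik was 0.704. The next were 1700038P13Rik (r = 0.846), 2310002D06Rik (0.841), Sele (0.826) and D430040D24Rik (0.798). Sele encodes E-selectin, an adhesion molecule of activated endothelium, and measured 1.87 and 2.13 in bladder against a median of -0.05 elsewhere. Without bladder, r of these 4 with 2310057J18Rik lay between -0.085 and 0.277, so their likeness rested on bladder. The arrays of a tissue share their RNA source, and these correlations are descriptions.

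Over the 28 arrays without bladder the 3 genes most like 2310057J18Rik had their highest array in stomach. Since 2310057J18Rik was well above background on only 1 of these arrays, stomach replicate 1, this order rests largely on that array. They were 1810008N23Rik, now Amy2a5, a pancreatic amylase (r = 0.750), 1700011M02Rik (0.717) and Slc9a4, a sodium-proton exchanger of acid-secreting stomach cells (0.706). 1700011M02Rik measured 3.08 and 1.37 in stomach and also 2.42 on fat replicate 1. Amy2a5 measured 2.50 and 2.01 in stomach and Slc9a4 measured 2.84 and 2.71, so the latter pair was present on stomach replicate 2, where 2310057J18Rik was not. In bladder the 3 genes measured between -0.40 and 0.13.

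C130026I21Rik was measured in every tissue and stood above the reference in bladder only. Its log2 ratio in bladder was 2.47 and 2.62, a mean of 2.54 ± 0.11 (SD, n = 2). The mean of the other 14 tissues was -2.49, so bladder exceeded it by 5.03, a 32.7-fold difference. In the processed ratio and in the authors' value table the log2 difference was larger, 6.04 in both. Unlike 2310057J18Rik, it was abundant in the reference, with Cy5 between 2110 and 2995 scanner units. Cy3 was well above background on 29 of 30 arrays, the exception being brain cortex replicate 2. Bladder Cy3 was 7.94 times that of fat, the next tissue.

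Below bladder the levels of C130026I21Rik formed a long gradient. Fat measured -0.24 and -0.19, and lung -1.02 and -0.43. Skin measured -1.23 and -0.66. Fat lay above lung without overlap, lung and skin overlapped, and skin lay above everything that follows. Small intestine measured -2.01 and -1.95. Large intestine measured -1.46 and -2.64, and bone -2.63 and -1.57. These intestinal and bone values overlapped one another and also liver, which measured -1.99 and -2.48.

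Further down, heart measured -2.39 and -2.30, just under the mean of liver and overlapping it. Kidney measured -2.80 and -3.04 and muscle -2.78 and -3.37. Heart did not overlap kidney, while kidney and muscle overlapped. Stomach measured -3.63 and -3.83 and eyes -3.57 and -3.98, overlapping each other and lying below muscle. The lowest were brain cortex at -4.42 and -4.06 and cerebellum at -4.59 and -4.39, which overlapped. Stomach, the only tissue besides bladder where 2310057J18Rik was seen, was thus 12th of 15 for C130026I21Rik by loess. It was 13th in the processed ratio, the median-centred ratio, the Cy3 level and the authors' value table. On the arrays of stomach, eyes, brain cortex and cerebellum Cy3 was low, between 73.5 and 99.0 scanner units.

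**Figure D4:**
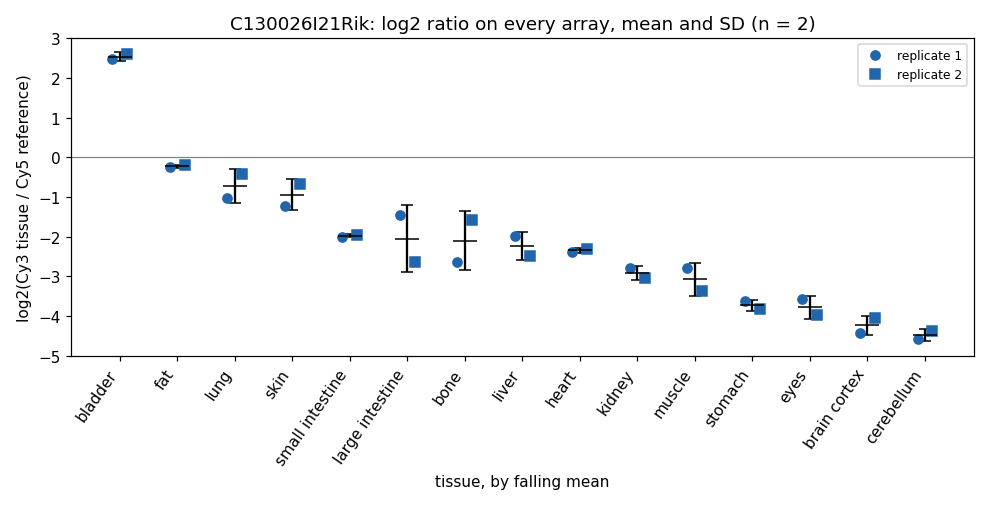
Log2(Cy3/Cy5) of C130026I21Rik on each of 30 arrays by tissue, with circles for replicate 1, squares for replicate 2, and a black line and bars for the mean and SD (n = 2). Bladder at 2.54 is the only tissue above 0, fat follows at -0.22, and cerebellum is lowest at -4.49.

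The order of the first 5 tissues (bladder, fat, lung, skin, small intestine) was the same in the processed ratio, the median-centred ratio, the Cy3 level and the authors' value table. The middle and the end of the order were not. Brain cortex was 15th and cerebellum 14th in the processed ratio, the Cy3 level and the authors' value table, the reverse of loess. Bone, 7th by loess, was 10th in the processed ratio, where its arrays read -3.55 and -4.46 and so changed their order too. The lung arrays also changed order, from -1.02 and -0.43 by loess to -1.16 and -1.57 when only median-centred.

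Among the 14 tissues without bladder, C130026I21Rik differed beyond the spread between arrays (adjusted p = 5.69e-08, limma's F-test), as did 89.8% of all probes, and 26.4% of probes had as small a p or a smaller one. Fat, whose 2 arrays may not stand for separate animals, was higher than the mean of the other 13 tissues by 2.44 ± 0.27 (SE), adjusted p = 3.31e-06. It was called higher, as were 1.71% of probes. That share was of 360 probes, which became 808 in the processed ratio, 754 in the authors' value table, 216 when median-centred and 814 without fat replicate 2. Over all probes the fat arrays stood apart from each other (r = 0.671 between them, against 0.798 to 0.991 for the other tissues). The fat difference of C130026I21Rik stayed between 2.40 and 2.49 when any 1 of the 28 arrays was left out. With array weights it kept its call, at an adjusted p of 0.0183 by limma's test. Cerebellum was lower by 2.16 ± 0.27 (SE; adjusted p = 2.77e-06, difference -2.16) and was called lower, as were 4.24% of probes, or 892, which became 1638, 1548 and 457 in the processed ratio, the authors' value table and the median-centred ratio. That call was lost in the median-centred ratio (-1.64), in the Cy3 level (-1.26) and with slide as a random block (-1.93). Both cerebellum arrays lay on the same slide. Arrays of a slide correlated at 0.664 beyond tissue (a consensus over probes), which the main fit did not model. Lung, at 1.90 ± 0.27 above the mean (adjusted p = 1.96e-05), skin, at 1.66 ± 0.27 (adjusted p = 0.000102), brain cortex, at -1.89 ± 0.27 (adjusted p = 1.17e-05), eyes, at -1.39 ± 0.27 (adjusted p = 0.000423), and stomach, at -1.34 ± 0.27 (adjusted p = 0.000837), passed limma's test but not the log2 difference of 2.

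Over the 30 arrays, 2010016I18Rik (r = 0.842), Aifm2 (0.829), 1700038P13Rik (0.818), Nrp2 (0.788) and 1810019N24Rik (0.783) were the genes with a symbol most like C130026I21Rik. Aifm2 encodes FSP1, an enzyme that protects membranes from lipid peroxidation, and measured 2.50 and 2.81 in bladder but 2.37 and 3.76 in fat. Nrp2 encodes neuropilin-2, a receptor of nerve and lymphatic vessel guidance, and measured 1.20 and 1.16 in bladder against a median of -1.32 elsewhere. 1700038P13Rik stands in the list of both members, with 3.38 and 3.60 in bladder and 0.66 at most elsewhere. Over the 28 arrays without bladder the leading genes were 1200002N14Rik, now Dram1, a p53 target linked to autophagy (r = 0.858), Adamts2, a procollagen peptidase (0.815), and Aifm2 (0.794). Dram1 was -0.04 and -0.33 in bladder, so its likeness did not extend to the bladder arrays.

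The genome around C130026I21Rik holds near-copies. For each gene RefSeq (GRCm38.p6) gives a window from 250 bases before to 50 bases after a transcript start, and that of C130026I21Rik was compared with those of its neighbours. The windows of C130026I21Rik and A530032D15Rik both lie inside the annotated span of their gene and not at its outer end, so they are not the only possible starts. The windows of C130026I21Rik and of A530032D15Rik, a gene of the same cluster, lined up over 279 bases with 0 mismatches, and the other 21 bases of each had no counterpart in the window of the other. Counted over all 321 columns of that alignment the identity was 86.9%, against 77.2% for Sp140 and 50.3% for the unrelated window of 2310057J18Rik. The windows are shown because they are nearly identical. In C130026I21Rik the capitals mark GC boxes, and in A530032D15Rik they mark the bases without counterpart.

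C130026I21Rik, chr1:85270517-85270816, minus strand: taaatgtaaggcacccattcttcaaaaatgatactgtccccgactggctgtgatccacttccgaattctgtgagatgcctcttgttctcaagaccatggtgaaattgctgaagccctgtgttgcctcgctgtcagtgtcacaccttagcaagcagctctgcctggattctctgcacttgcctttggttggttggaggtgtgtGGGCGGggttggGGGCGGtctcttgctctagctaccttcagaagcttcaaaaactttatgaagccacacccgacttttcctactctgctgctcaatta
A530032D15Rik, chr1:85109804-85110103, minus strand: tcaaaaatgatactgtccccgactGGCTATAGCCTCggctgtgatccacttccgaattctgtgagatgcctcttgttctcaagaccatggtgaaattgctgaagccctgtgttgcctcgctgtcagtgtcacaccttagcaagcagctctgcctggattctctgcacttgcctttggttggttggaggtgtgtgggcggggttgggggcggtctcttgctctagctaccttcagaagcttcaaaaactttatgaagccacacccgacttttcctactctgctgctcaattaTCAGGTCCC

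The order of the tissues differed between the pair. Where bladder came 1st for C130026I21Rik, it came 8th of 15 for A530032D15Rik, at -0.87 and -0.72, which was highest in bone (1.24 and 0.52). The probes differ, so levels of one gene cannot be set against the other. Over the 28 arrays without bladder it ran alongside C130026I21Rik (r = 0.789, the 4th highest among genes with a symbol), with both lowest in cerebellum and brain cortex. Whether either probe also binds transcripts of the other near-copies in the cluster was not tested.

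Of the 8 genes listed for the SP100 family, 3 had a probe with a symbol, and all 3 differed among the 14 tissues by limma's F-test, beside 89.8% of all probes. Sp110, a nuclear body protein linked to defence against intracellular bacteria, measured 1.37 and 1.06 in bladder, the third tissue after lung (2.17 and 1.98) and bone (2.19 and 1.56). Its median over the other arrays was -0.36, and its r with C130026I21Rik without bladder was 0.711. Sp100, the namesake of the family, moved little, with 0.11 and 0.21 in bladder and at most 1.09, in lung. Its Cy3 was well above background on only 16 of 30 arrays, against 30 for A530032D15Rik and Sp110. Ratios near 0 on the remaining arrays are those of signal near background. None of the 3 was highest in bladder.

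**Figure D5:**
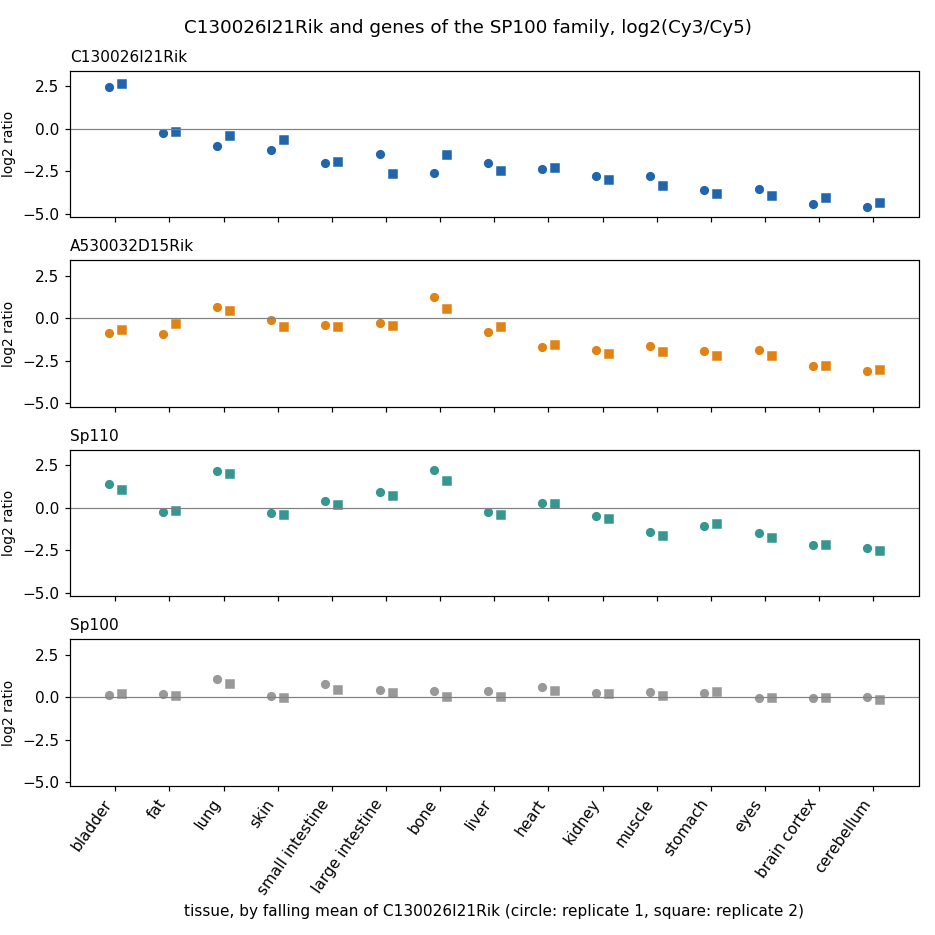
Log2(Cy3/Cy5) on each array of C130026I21Rik and of 3 genes of the SP100 family, by tissue in the order of C130026I21Rik, on a common y axis; circles are replicate 1 and squares replicate 2. All but Sp100, which was well above background on only 16 of 30 arrays, are low in brain cortex and cerebellum. In bladder C130026I21Rik is at 2.47 and 2.62 while A530032D15Rik is at -0.87 and -0.72.

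None of the other annotated neighbours of C130026I21Rik with a symbol on the array was highest in bladder. A630001G21Rik measured -0.83 and -0.94 in bladder and ranked 7th, Slc16a14 measured 0.59 and 0.53 and ranked 5th, and Fbxo36 measured -0.37 and -0.15 and ranked 7th of 15. Around 2310057J18Rik the 3 nearest genes on each side had no probe with a symbol. The nearest with one, Soga3 at 157690 bases, measured -1.54 and -1.59 in bladder and ranked 9th. Rnf146, Cenpw and Smlr1, farther away, ranked 4th, 10th and 15th.

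The window at the annotated start of 2310057J18Rik differs in make-up from that of C130026I21Rik. Capitals mark the CCAAT boxes.

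2310057J18Rik, chr10:28986257-28986556, minus strand: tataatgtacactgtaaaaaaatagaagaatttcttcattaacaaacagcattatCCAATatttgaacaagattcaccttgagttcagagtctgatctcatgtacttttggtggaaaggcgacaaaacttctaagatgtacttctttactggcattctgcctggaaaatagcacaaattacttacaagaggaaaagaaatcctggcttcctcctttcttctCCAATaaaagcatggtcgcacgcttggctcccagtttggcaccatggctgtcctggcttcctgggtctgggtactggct

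It holds 3 CG dinucleotides and 40.7% G or C, and that of C130026I21Rik holds 6 and 49.7%, against medians of 7 and 52.7% over 32817 windows. On both strands, 2310057J18Rik had 2 matches to the CCAAT box (CCAAT, in 37.4% of windows) and 0 to the GC box, while C130026I21Rik had 2 matches to the GC box (GGGCGG, in 35.6%) and 0 to the CCAAT box. The E-box (CANNTG, 72.3%) matched 0 times in 2310057J18Rik and 1 time in C130026I21Rik, and the KLF site (CACCC, 57.5%) 0 and 2 times. Neither had a TATA box (TATAAA, 13.6%), an AP-1 site (TGAGTCA, 5.2%), a GATA site (AGATAA, 11.2%) or the core of the interferon-stimulated response element (GAAANNGAAA, 3.43%). A match is only a match of letters, and its absence concerns these 300 bases alone.

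The bladder label was compared with marker genes. Of 24 urothelium markers only Elf3, an epithelial transcription factor, had a symbol here. It measured 1.33 and 1.39 in bladder, 5th of 15 tissues, against a median of -0.58 on the other arrays. Of 14 smooth muscle markers 3 had a symbol. Lmod1, an actin nucleator of smooth muscle, was highest in bladder (3.06 and 3.07), Synpo2 was second there (1.59 and 1.84) and Des was 6th of 15. Col3a1, the fibroblast collagen, was second after skin (0.83 and 0.98). The uroplakins, which define urothelium, had no symbol here and were not analysed.

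Markers of other cells in a bladder sample were few. Of 16 markers of male accessory glands, 12 of myeloid cells and 6 of adipocytes, 0 had a symbol, so these cells could not be followed. Among B cell and T cell markers, Fcmr measured 0.54 and 0.50, Cd28 -1.23 and -1.33, and Cd247 0.13 and 0.29 in bladder, ranking 7th or 8th of 15. Their Cy3 was well above background on 23, 18 and 7 of 30 arrays, so these ranks rest partly on signal near background. In the loess ratio Elf3, Lmod1, Synpo2, Des and Col3a1 differed between the bladder arrays by less than 2310057J18Rik did (2.89), whereas the gap of 2310057J18Rik was -0.10 in the processed ratio and 0.35 in the authors' value table. Of 26 secreted epithelial proteins only Pigr, the carrier of secreted antibodies, had a symbol, at 0.24 and 0.06 in bladder and 0.48 and 0.51 in stomach.

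By the rule that chose the members, the gene next in order was Csrp1, a smooth muscle LIM protein. Its bladder arrays read 4.89 and 5.05, and the highest other array read 4.61. Over all probes 2310057J18Rik ranked 1st and C130026I21Rik 13th by this difference, and 424 probes, 96 of them with a symbol, had both bladder arrays above every other array.

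Both bladder arrays lay on 1 slide with both kidney arrays, so bladder was compared within a slide only with kidney, where 2310057J18Rik was not well above background and C130026I21Rik measured -2.80 and -3.04. Median Cy3 signals of the arrays ran from 85.7 to 175 scanner units, and between 53.9% and 76.9% of spots were well above background in Cy3. The number of arrays per tissue, 2, limits the precision of every mean given here.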

How the data were processed

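The authors labelled tissue RNA with Cy3 and a common reference with Cy5, hybridised 30 two-colour Agilent arrays and read them with Feature Extraction 9.5.1.1. In the deposited files of spots there is an intensity in scanner units per spot and channel, with outlier and background flags and other columns. The deposited value table gives 25030 probes on a log10 scale. Over 11751 bright probes it followed log10 of the processed Cy3 signal (slope 0.9978) minus the deviation of log10 Cy5 from its mean (slope -0.996), so it is a Cy3 level adjusted for the reference, and is given here in log2 units.

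Mean signals were background-corrected (normexp, offset 50, limma 3.58.1 in R 4.3.3), 475 outlier spots and all control spots were removed, each array was normalised by loess, and log2(Cy3/Cy5) was averaged per probe. Probes of the value table were kept if both arrays of 1 tissue or more had Cy3 well above background (21019, of which 5047 have a symbol). Symbols came from the study's probe lists, used for names only. A limma model with 1 coefficient per tissue was fitted to the 28 arrays without bladder. It gave a moderated F-test and 14 contrasts of each tissue against the mean of the other 13, two-sided, with p adjusted by Benjamini-Hochberg over all probes within each. A probe was called at an adjusted p under 0.05 and a log2 difference of at least 2.

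The members, gene lists and tests were chosen with earlier results of these data known. Genes were named by a rule: the members, the 5 and 3 genes most like each with and without bladder (Pearson r), annotated neighbours, the gene next in order, and the lists. Values of some list members are not reported here. The 3 nearest neighbours on each side were replaced by the nearest with a symbol where those had none. Alternatives were other signals and normalisations, filters, slide and replicate blocks, array weights, and each array left out.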

Additional observations from a re-analysis of the deposited data

How the results depend on the processing

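Of 359 alternative values beside the bounds of 2310057J18Rik, 340 kept direction and side of the threshold or moved little, and 0 reversed. That count includes tests of 2310057J18Rik among the 14 tissues, which it entered only through bladder and where 27 of 28 arrays were not well above background, so its values there show neither stability nor a call. Its stomach difference (1.81) was 3.39 in the processed ratio, 3.14 in the authors' value table and 0.07 to 3.55 with 1 array left out. In limma's F-test among the 14 tissues, the adjusted p of 2310057J18Rik ran from 1.72e-09 to 0.856 with 1 array left out. The first was without stomach replicate 2 and the second without stomach replicate 1. Each fit assumed that the lone stomach array varied as the other tissues did. As the gene entered the test only through bladder, nothing is read from these values. The bladder difference of 2310057J18Rik (6.75) was 5.30 and 8.19 with 1 bladder array left out, and 5.86 to 8.20 in other normalisations. That of C130026I21Rik (5.03) was 6.04 in the processed ratio, 6.04 in the authors' table and 5.36 when median-centred. With 1 bladder array left out it was 4.95 and 5.11. The cerebellum difference of C130026I21Rik (-2.16) was -1.64 when median-centred, -1.26 in the Cy3 level and -1.93 with slide as a random block, under the limit for a call. Leaving out 1 array gave -2.26 to -2.05, and its fat difference stayed between 2.40 and 2.49. The cause of these shifts was not tested.

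Counts over all probes moved too. Probes that differed among the 14 tissues (18872) were 30558 over all probes of the array, where more were tested, and 18460 to 19364 with 1 array left out. Probes higher in stomach (837) were 1293 in the processed ratio, probes higher in fat (360) were 808 there, 216 when median-centred, 754 in the authors' table and 352 to 814 with 1 array left out (814 without fat replicate 2), and probes lower in cerebellum (892) were 1638, 457 and 1548 in those 3 settings and 850 to 908 with 1 array left out. With 1 array left out, probes higher in stomach were 820 to 854.

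The labels share replicate numbers. Without bladder, deviations of replicate 1 correlated between tissues at a median of 0.0418 (-0.246 to 0.342), above 0.1 in 25 of 91 pairs of tissues. These values do not settle whether samples with the same number share an animal or a batch. With the replicate block the adjusted p was 1.77e-07 for C130026I21Rik, whose calls did not change, and 18994 probes differed. For 2310057J18Rik it was 0.347, from which nothing is read for the same reason. Slide as a fixed block could not be fitted, because tissue and slide cannot be separated for all tissues. 2310057J18Rik did not enter the stricter filter or that over the 14 tissues. Signal near background limits its order in 13 tissues.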

Other observations

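Among the 10 probes with the largest gap in Cy3 between the bladder arrays, 2 without a symbol here were bright on a bladder array and dim on the other tissues. Since all were chosen here by that gap, their r with 2310057J18Rik over the 30 arrays rests on the bladder arrays. Probe Z00026330-1 (r = 0.928) had Cy3 mean signals of 56386 and 481 in bladder and at most 79.5 elsewhere. Its ratios were 5.97 and 3.05, and in the authors' value table its bladder arrays read 10.35 and 10.32 in log2 units, so its gap also closed there. Probe Z00022943-1 (r = 0.848) had 8036 and 111 in bladder and at most 72.2 elsewhere, and its values in that table, 11.85 and 6.95, remained apart. Neither was raised on stomach replicate 1 (56.2 and 57.7). The 60 bases of the first are shown because its r with 2310057J18Rik was the highest among these probes. Its gene was not identified here.

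Z00026330-1: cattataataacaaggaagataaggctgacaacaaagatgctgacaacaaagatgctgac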
